A study of Mus musculus with 10 samples.

Results

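The 10 genes described here encode the route by which most cells show fragments of their own proteins to T cells: the class I heavy chains H2-K1 and H2-D1, their light chain B2m, the peptide transporter Tap1 and Tap2, the loading factor Tapbp, the inducible proteasome subunits Psmb8, Psmb9 and Psmb10, and the transcriptional activator Nlrc5. They were taken by symbol from a table of 55385 genes, each symbol matched 1 row, and 10 of 10 passed the filter on low counts. RNA came from the left ventricle of mice labelled C56Bl6, 5 libraries a group. The HFpEF group received High-Fat + L-NAME for 6 weeks, where L-NAME inhibits nitric oxide synthases and the pair of insults models heart failure with preserved ejection fraction. The Control group received a standard diet for the same 6 weeks. The labels give neither age nor sex and do not say that every library is a separate mouse. The p-values below therefore speak of the spread among libraries, and part of it may be technical.

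In class I presentation, the proteasome cuts cytosolic proteins into peptides, TAP pumps them into the endoplasmic reticulum, and tapasin holds an empty heavy chain with its light chain beside TAP until a peptide fits. Interferon exchanges the constitutive catalytic proteasome subunits for the inducible ones, and Nlrc5 switches on class I genes as Ciita does class II genes. In the heart, endothelial cells and leukocytes are known for high class I levels and cardiomyocytes for low ones. In bulk tissue, fewer cells of a type and less RNA per cell cannot be told apart.

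The promoters of the heavy chains and of the transporter gene Tap1 are shown. Interferon and NF-kappaB are known to act on heavy-chain genes through sites in their promoters, and the Tap1 window is given because Tap1 and Psmb9 lie head to head. The sequences are RefSeq windows of build GRCm38.p6, from 250 bases before to 50 bases after the start site, on the gene's own strand. A window was found for 8 of the 10 genes and for neither Tap2 nor Nlrc5. Capitals mark matches, on either strand, to an exact NF-kappaB site (the first run of capitals in each heavy-chain window), to GAANNGAAA (the core of an interferon-stimulated response element), to TTCNNNGAA (a gamma-activated site) and to CCAAT. The windows are chr17:34000298-34000597 on the minus strand for H2-K1, chr17:35262844-35263143 on the plus strand for H2-D1 and chr17:34187306-34187605 on the plus strand for Tap1.
H2-K1: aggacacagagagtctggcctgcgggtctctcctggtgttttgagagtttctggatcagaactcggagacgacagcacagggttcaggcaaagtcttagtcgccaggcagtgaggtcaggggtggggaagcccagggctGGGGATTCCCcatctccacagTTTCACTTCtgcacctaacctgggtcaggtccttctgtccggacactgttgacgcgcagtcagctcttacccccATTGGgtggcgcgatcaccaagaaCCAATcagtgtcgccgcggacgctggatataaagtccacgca
H2-D1: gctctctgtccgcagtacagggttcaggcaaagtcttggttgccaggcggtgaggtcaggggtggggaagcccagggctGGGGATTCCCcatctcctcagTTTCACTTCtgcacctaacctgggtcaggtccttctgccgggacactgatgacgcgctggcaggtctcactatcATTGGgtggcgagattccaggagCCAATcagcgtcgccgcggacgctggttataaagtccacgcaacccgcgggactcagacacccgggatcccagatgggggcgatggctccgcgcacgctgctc
Tap1: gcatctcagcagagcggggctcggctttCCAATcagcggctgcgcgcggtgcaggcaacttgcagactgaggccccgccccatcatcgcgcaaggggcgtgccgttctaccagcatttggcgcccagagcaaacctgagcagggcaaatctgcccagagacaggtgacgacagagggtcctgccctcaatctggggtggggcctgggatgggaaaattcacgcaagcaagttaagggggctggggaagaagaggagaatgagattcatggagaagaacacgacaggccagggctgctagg

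Each heavy-chain window held the NF-kappaB letters followed closely by the interferon element, and of 239 bases that aligned between them 211 were the same (88.3%). Among the 8 genes' first windows, 2 held the exact NF-kappaB letters, those of H2-K1 and H2-D1, against 0.104% of the 27025 genes with a window. GAANNGAAA was found in the same 2 windows, against 7.56% of all genes. As these 2 windows are alike in sequence, they do not count as separate finds. Such sites were known in heavy-chain promoters beforehand, and no enrichment was tested. TTCNNNGAA was found in 1 of 8 (Psmb8), against 8.47% of all genes, and CCAAT in 6 of 8, against 37.9%. The Tap1 and Psmb9 windows shared 275 bases, and their start sites lay 226 bases apart on opposite strands. The CCAAT matches of Tap1 and Psmb9 are the same bases, so they do not count as separate finds either. Nor do the CCAAT matches of H2-K1 and H2-D1. None of the other 3 motifs was found in the Tap1 window. These are matches of letters, not shown to be bound.

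Library totals ran from 31286355 to 33604554 counts in HFpEF and from 31555001 to 46108710 counts in Control. Transcripts of the mitochondrial genome took 36.2% to 38.5% of counts in HFpEF and 33.6% to 37.5% in Control. Levels below are CPM, which are counts scaled to one common library total by TMM. Each log2 fold change is that of HFpEF over Control, with its standard error (SE). A gene was called at an adjusted p below 0.05 from edgeR's quasi-likelihood test over 18491 genes. Within HFpEF the class I genes split by library: HFpEF 2 had the highest level of its group for 10 of the 10 genes and stood above the Control mean for 7 of them. HFpEF 3 had the lowest level of its group for 7 and lay below every Control library for 10 of 10. Results are therefore also given without each of these libraries and without both.

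The question put to these genes is whether antigen presentation transcripts differed after 6 weeks of the regimen. Of the 10, 1 fell, 0 rose and 9 were not called. The gene that fell was Tap2, by 17.2% (log2 fold change -0.27). Fold changes were below 0 for 10 of 10 genes, with a median of -0.28 on the log2 scale, against -0.01 over all genes tested, where 52.8% of genes were below 0. At or below -0.2 lay 7 of the 10, against 16.7% of all genes tested. Genes called lower made up 2.09% of all genes tested and genes called higher 3.24%. At an unadjusted p below 0.05, 4 of the 10 were lower and 0 higher, against 9.91% of all genes lower at that level. DESeq2 and limma voom each called 1 of the 10 lower and 0 higher, where they called 2.82% and 1.84% of all genes lower. Because the 10 genes varied together between libraries (median pairwise Pearson r of 0.75, described below), they do not count as 10 separate observations. They were chosen with earlier results of these data known, and no test was made over the set.

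**Figure D1:**
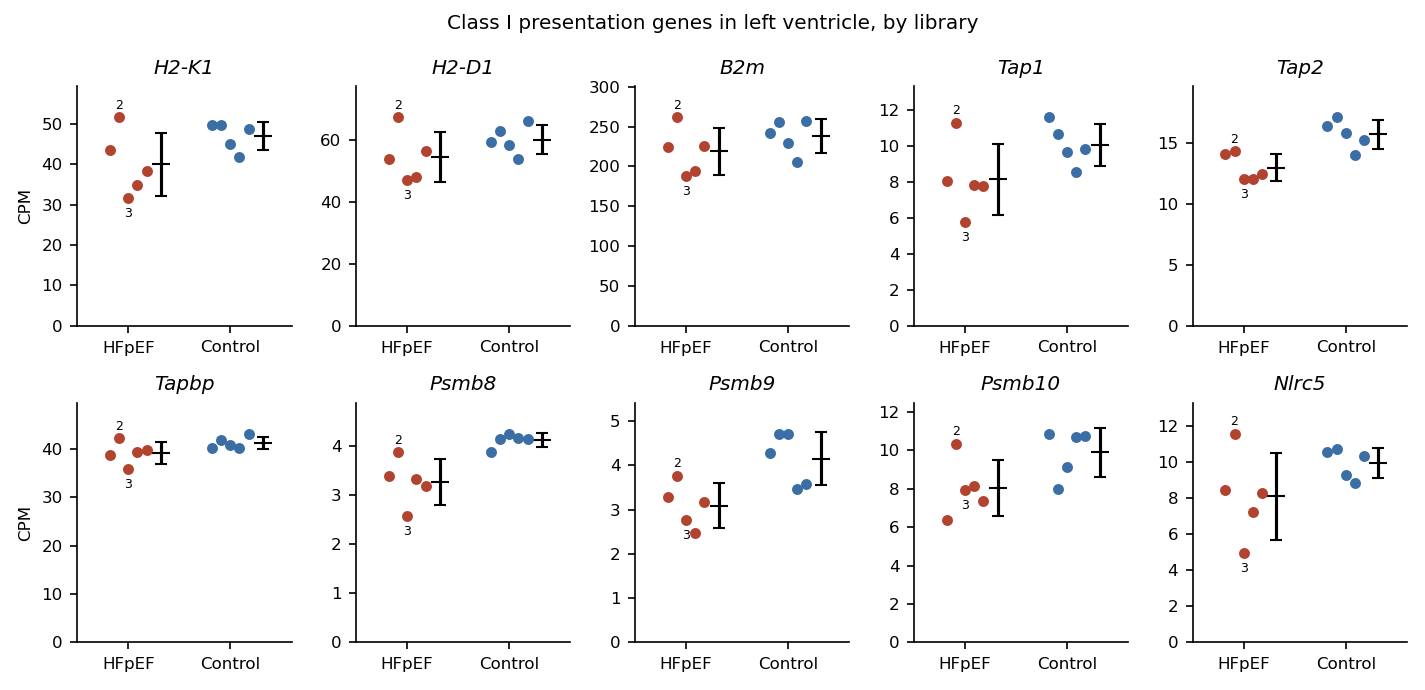
CPM of each gene by library, HFpEF left and Control right in every panel, with bars for the mean and SD of 5 libraries and the points of HFpEF 2 and HFpEF 3 numbered. HFpEF 2 lies at the top of its group in all 10 panels, and the groups are apart for Psmb8 alone, by 3.86 against 3.87 CPM.

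The transporter genes lie together on chromosome 17, in the class II region of the major histocompatibility complex. Tap2 (chromosome 17, 34203527 to 34216321, plus strand, protein-coding; GENCODE M21 coordinates, build mm10, here and below) encodes one chain of the transporter. It stood at 14.1, 14.3, 12.0, 12.0 and 12.4 CPM in HFpEF 1 to 5, against 16.4, 17.1, 15.8, 14.0 and 15.2 CPM in Control 1 to 5. The groups overlapped only through Control 4, which lay below HFpEF 1 and HFpEF 2. The log2 fold change was -0.27 ± 0.07 (SE; 95% interval -0.42 to -0.12; adjusted p = 0.0375 by Benjamini-Hochberg over all genes tested). All 5 HFpEF libraries lay below the Control mean.

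The call of Tap2 held under the 9 other scalings, filters, tests and designs tried, with adjusted p values from 0.0163 to 0.0496. Of the 10 fits that leave out 1 library, the call held in 4, those without Control 4, Control 5, HFpEF 1 or HFpEF 2. Leaving out any of the remaining 6 ended it, with an adjusted p of at most 0.103, while the fold change stayed between -0.31 and -0.23. Exons of other genes on the opposite strand overlap 18.5% of the exonic length of Tap2. The sources used here do not say whether strand was used in counting.

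Tap1 (chromosome 17, 34187553 to 34197225, plus strand) encodes the other chain of the transporter. It stood at 8.04, 11.3, 5.74, 7.79 and 7.76 CPM in HFpEF 1 to 5, against 11.6, 10.6, 9.65, 8.51 and 9.80 CPM in Control 1 to 5. In 4 HFpEF libraries Tap1 lay below every Control library, and in HFpEF 2 it was above 4 of the 5. The log2 fold change was -0.30 ± 0.14 (SE; interval -0.61 to 0.01; adjusted p = 0.262), so a fall as large as that of Tap2 lies inside its interval. The groups' spreads were unlike, with a coefficient of variation of 24.5% in HFpEF and 11.4% in Control, where counting alone would give 6.25% and 5.10%.

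Tapbp (chromosome 17, 33915899 to 33929292, plus strand) encodes tapasin, which bridges the transporter and the heavy chain. It stood at 38.8, 42.3, 35.9, 39.3 and 39.8 CPM in HFpEF 1 to 5, against 40.2, 41.8, 40.9, 40.1 and 43.2 CPM in Control 1 to 5. Its difference was the smallest of the 10 genes, a log2 fold change of -0.07 ± 0.05 (SE; interval -0.17 to 0.03; adjusted p = 0.436). The interval leaves out a fall of the size fitted for Tap2. Exons of a gene on the opposite strand overlap 24.9% of the exonic length of Tapbp.

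The inducible proteasome subunits had the lowest fitted values. Psmb9 (LMP2; chromosome 17, 34181987 to 34187764, minus strand) replaces Psmb6 in the immunoproteasome. It stood at 3.29, 3.77, 2.76, 2.46 and 3.18 CPM in HFpEF 1 to 5, against 4.28, 4.71, 4.71, 3.48 and 3.59 CPM in Control 1 to 5. HFpEF 2 lay above Control 4 and Control 5, and the other 4 HFpEF libraries lay below every Control library. This gave a log2 fold change of -0.41 ± 0.13 (SE; interval -0.69 to -0.14), a change of -24.97% that missed the threshold (adjusted p = 0.0771).

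Psmb8 (LMP7; chromosome 17, 34197721 to 34201454, plus strand) replaces Psmb5. It stood at 3.38, 3.86, 2.56, 3.33 and 3.18 CPM in HFpEF 1 to 5, against 3.87, 4.15, 4.24, 4.15 and 4.14 CPM in Control 1 to 5. Every HFpEF library lay below every Control library, although HFpEF 2 and Control 1 were nearly level. Such a separation was seen in 2.93% of all genes tested. Its fitted log2 fold change was -0.33 ± 0.10 (SE; interval -0.55 to -0.11; adjusted p = 0.0774). At 79 to 208 counts a library, counting alone gives Psmb8 a coefficient of variation of 9.86% in HFpEF and 7.92% in Control, beside the 14.3% and 3.46% seen. Exons on the opposite strand overlap 14.7% of the exonic length of Psmb8, and 5.79% of that of Psmb9, where the other gene is Tap1.

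Psmb10 (MECL-1; chromosome 8, 105935735 to 105938444, minus strand), the subunit that replaces Psmb7, lies outside the major histocompatibility complex. It stood at 6.35, 10.3, 7.92, 8.13 and 7.39 CPM in HFpEF 1 to 5, against 10.9, 7.997, 9.15, 10.7 and 10.7 CPM in Control 1 to 5. The groups overlapped through HFpEF 2 and Control 2. A log2 fold change of -0.30 ± 0.12 was fitted (SE; interval -0.56 to -0.05; adjusted p = 0.164).

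The constitutive partners gave smaller values. The log2 fold changes were -0.07 ± 0.06 for Psmb5 (adjusted p = 0.555), -0.09 ± 0.05 for Psmb6 (adjusted p = 0.362) and 0.07 ± 0.06 for Psmb7 (adjusted p = 0.572). The ratio of each inducible subunit to its partner within a library does not depend on how libraries are scaled, and 3 ratios were compared with exact permutation tests, two-sided, with p-values adjusted over the 3. Ratios are of counts per exonic kilobase, and their level, though not the difference between groups, depends on the length used. With principal transcript lengths, chosen after seeing the data, Psmb8 over Psmb5 averaged 0.139 ± 0.0195 in HFpEF and 0.167 ± 0.0131 in Control, and Psmb10 over Psmb7 averaged 0.0988 ± 0.0120 in HFpEF and 0.128 ± 0.0153 in Control (SD, n = 5 each), which turns round the order of these 2 ratios.

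Psmb8 over Psmb5 was 0.0746, 0.0714, 0.0511, 0.0719 and 0.0658 in HFpEF 1 to 5, against 0.0710, 0.0874, 0.0833, 0.0822 and 0.0771 in Control 1 to 5. HFpEF 3 was the lowest, and Control 1 lay among the HFpEF libraries. The difference of the log2 ratio was -0.27 (exact permutation p = 0.0317, adjusted p = 0.0476), with 5 of 5 HFpEF libraries below the Control mean. Psmb10 over Psmb7 was 0.207, 0.273, 0.214, 0.214 and 0.212 in HFpEF 1 to 5, against 0.321, 0.233, 0.285, 0.307 and 0.306 in Control 1 to 5. The libraries overlapped only in HFpEF 2 and Control 2, and the difference of the log2 ratio was -0.37 (exact permutation p = 0.0159, adjusted p = 0.0476; 5 of 5 below the Control mean).

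Psmb9 over Psmb6 averaged 0.0635 ± 0.0115 in HFpEF and 0.0807 ± 0.0159 in Control (SD, n = 5 each; difference of the log2 ratio -0.34; exact permutation p = 0.111, adjusted p = 0.111). Its difference lay between those of the other 2 ratios, with Control 4 and Control 5 among the HFpEF libraries. With 1 library left out, the smallest p the exact test can give is 0.0159. The call of Psmb8 over Psmb5 held in 1 of the 10 fits that leave out a library, the one without Control 1. That of Psmb10 over Psmb7 held in 3, those without HFpEF 2, Control 1 or Control 2 (exact permutation tests, adjusted p up to 0.0952 for both ratios). The differences of the log2 ratios then ran from -0.31 to -0.18 for Psmb8 over Psmb5 and from -0.45 to -0.33 for Psmb10 over Psmb7, the -0.18 being that without HFpEF 3.

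**Figure D2:**
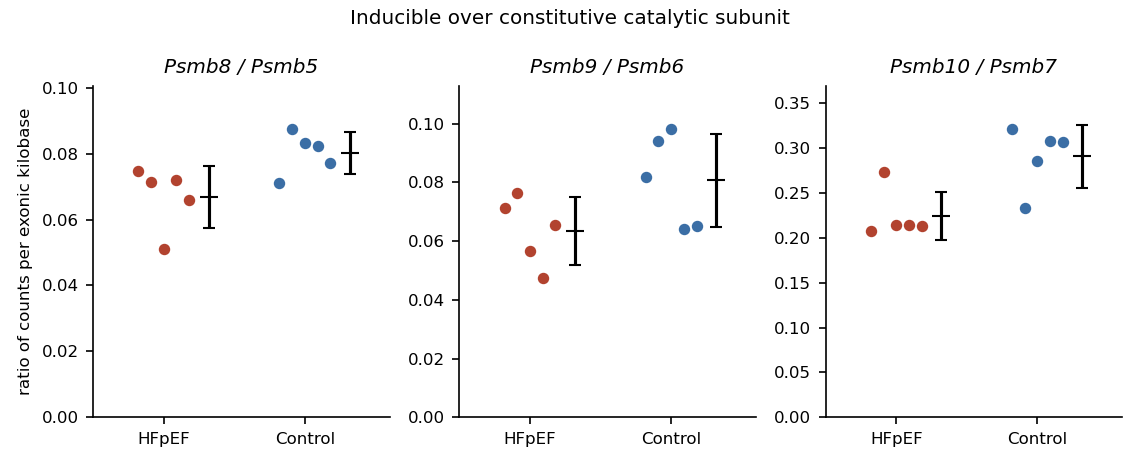
Ratio of inducible to constitutive catalytic subunit in each library (counts per exonic kilobase, linear axis from 0), HFpEF left and Control right, with the mean and SD of 5 libraries. Psmb8 over Psmb5 lies between 0.0511 and 0.0746 in HFpEF and between 0.0710 and 0.0874 in Control.

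The antigen-presenting molecule itself gave smaller differences. H2-K1 (chromosome 17, 33996017 to 34000347, minus strand) stood at 43.4, 51.6, 31.7, 34.7 and 38.4 CPM in HFpEF 1 to 5, against 49.7, 49.8, 44.97, 41.8 and 48.8 CPM in Control 1 to 5. Its HFpEF range enclosed the Control range. The log2 fold change was -0.23 ± 0.12 (SE; interval -0.49 to 0.02; adjusted p = 0.286).

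H2-D1 (chromosome 17, 35262730 to 35267499, plus strand), the other classical heavy chain measured, stood at 53.9, 67.2, 46.9, 48.0 and 56.3 CPM in HFpEF 1 to 5, against 59.2, 62.7, 58.4, 53.7 and 66.0 CPM in Control 1 to 5. HFpEF 2 was the highest of the 10 libraries, and HFpEF 3 and HFpEF 4 were the lowest. For H2-D1 the log2 fold change was -0.14 ± 0.09 (SE; interval -0.33 to 0.05; adjusted p = 0.414). Of the distinct 50-base stretches in its annotated transcripts 12.8% also occur in other genes, mostly other class I genes, and 9.63% for H2-K1, so reads of these paralogs may have been divided between them.

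B2m (chromosome 2, 122147686 to 122153083, plus strand), the light chain shared by all class I molecules, stood at 225, 262, 188, 195 and 225 CPM in HFpEF 1 to 5, against 242, 255, 230, 205 and 257 CPM in Control 1 to 5. The order of the HFpEF libraries was close to that of the heavy chains, with HFpEF 2 highest and HFpEF 3 lowest. For B2m the log2 fold change was -0.12 ± 0.09 (SE; interval -0.31 to 0.07; adjusted p = 0.474).

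The balance of these 3 genes within a library was compared with exact permutation tests, two-sided, with p-values adjusted over the 2 ratios. B2m over the sum of both heavy chains, per exonic kilobase, averaged 7.36 ± 0.233 in HFpEF and 7.04 ± 0.142 in Control (SD, n = 5 each; difference of the log2 ratio 0.06; exact permutation p = 0.0476, adjusted p = 0.0952). H2-K1 over H2-D1 averaged 0.642 ± 0.0490 in HFpEF and 0.689 ± 0.0325 in Control (difference of the log2 ratio -0.10; exact permutation p = 0.119, adjusted p = 0.119). These levels depend on the length used. With principal transcript lengths, B2m over both heavy chains averaged 5.05 ± 0.187 in HFpEF and 4.80 ± 0.0975 in Control (SD, n = 5 each). H2-K1 over H2-D1 then averaged 0.949 ± 0.0725 in HFpEF and 1.02 ± 0.0480 in Control. Neither ratio differed beyond the threshold at either length. Without HFpEF 2, B2m over both heavy chains did at exonic length, with a difference of 0.08 (exact permutation test, adjusted p = 0.0317).

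Nlrc5 (chromosome 8, 94434356 to 94527272, plus strand), the activator of class I genes, varied most between HFpEF libraries. It stood at 8.45, 11.6, 4.96, 7.23 and 8.31 CPM in HFpEF 1 to 5, against 10.6, 10.8, 9.30, 8.85 and 10.3 CPM in Control 1 to 5. HFpEF 2 was the highest of the 10 libraries and the other 4 HFpEF libraries lay below every Control library. The log2 fold change was -0.29 ± 0.17 (SE; interval -0.67 to 0.08; adjusted p = 0.370), with a coefficient of variation of 29.5% in HFpEF and 8.44% in Control.

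Per exonic kilobase of the annotated gene, the levels (RPKM) spanned a wide range. B2m was the most abundant, at 254 ± 34.0 RPKM in HFpEF and 277 ± 24.96 RPKM in Control (SD, n = 5 each, here and below). H2-D1 followed with 21.1 ± 3.16 RPKM in HFpEF and 23.3 ± 1.81 RPKM in Control, and H2-K1 with 13.6 ± 2.67 RPKM in HFpEF and 16.001 ± 1.202 RPKM in Control.

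Tapbp stood at 10.8 ± 0.635 RPKM in HFpEF and 11.4 ± 0.349 RPKM in Control, Psmb10 at 4.71 ± 0.861 RPKM in HFpEF and 5.80 ± 0.745 RPKM in Control, and Tap2 at 3.43 ± 0.299 RPKM in HFpEF and 4.15 ± 0.311 RPKM in Control. At this length the mean of Tapbp in HFpEF lay just within the range of the H2-K1 libraries. With the principal transcript length used below, Tapbp stood at 13.5 ± 0.796 RPKM in HFpEF, below H2-K1 at 24.7 ± 4.84 RPKM beyond their spread. Tap1, Nlrc5, Psmb8 and Psmb9 lay between 0.845 and 1.48 RPKM in HFpEF and between 1.13 and 1.83 RPKM in Control, and of these Nlrc5, Psmb8 and Psmb9 did not differ from each other beyond their spread at this length. The exonic length joins all annotated transcripts, which lowers genes with long rare forms. With the length of the APPRIS principal transcript, H2-K1 (24.7 ± 4.84 RPKM in HFpEF, 29.0 ± 2.18 RPKM in Control) and H2-D1 (25.9 ± 3.87 RPKM in HFpEF, 28.5 ± 2.22 RPKM in Control) did not differ beyond their spread, and Psmb9 came to 2.29 ± 0.372 RPKM in HFpEF and 3.07 ± 0.441 RPKM in Control. At that length Psmb8 stood at 2.01 ± 0.287 RPKM in HFpEF and 2.53 ± 0.0873 RPKM in Control, and Nlrc5 at 1.07 ± 0.316 RPKM in HFpEF and 1.32 ± 0.111 RPKM in Control. Nlrc5 was then below both subunits beyond their spread.

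**Figure D3:**
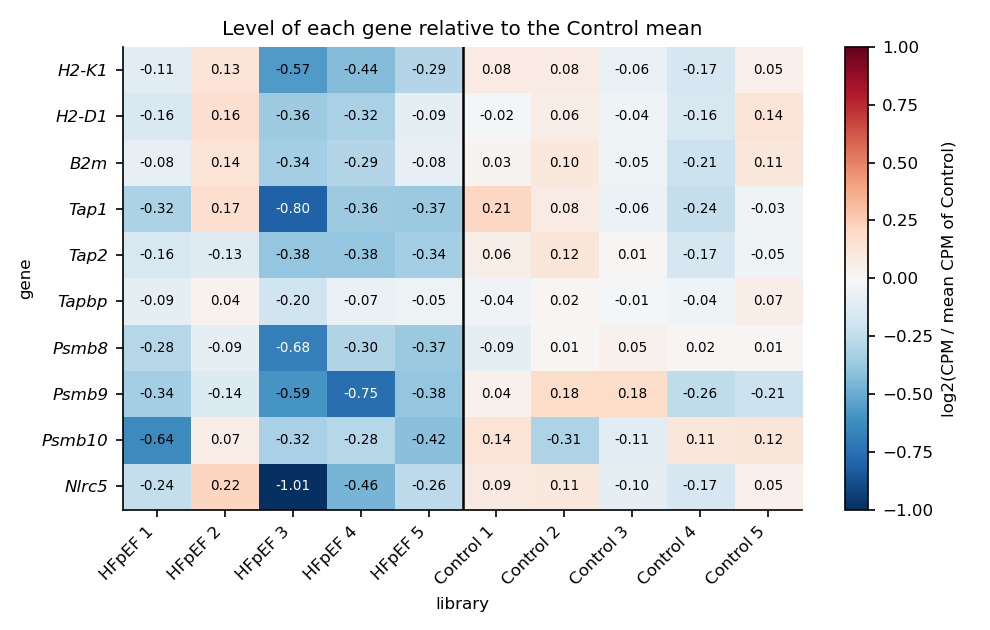
Level of each gene in each library as log2 of its CPM over the mean CPM of the Control libraries, HFpEF 1 to 5 left of the line and Control 1 to 5 right of it. HFpEF 2 is at or above 0 for 7 genes, and HFpEF 3 reaches -1.01 for Nlrc5.

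The 10 genes varied together between libraries of a group. With each gene taken as its deviation from its own group mean in 10 libraries, 43 of the 45 pairs of genes had a Pearson r above 0, with a median of 0.75. The highest was 0.97, between H2-D1 and B2m, and the lowest was -0.16, between Tap2 and Psmb10. Tap1 and Psmb9, whose promoters overlap, had an r of 0.64, below that of Tap1 with Nlrc5 (0.95). Psmb10 was the gene least like the rest, with an r of at most 0.35 to any other. These values are descriptions, since the points share their library and its scaling, and HFpEF 2 and HFpEF 3 lie at the ends. The mean log2 deviation of the 10 genes from their group means was 0.31 in HFpEF 2 and -0.24 in HFpEF 3, and from -0.12 to 0.05 in the other 8 libraries.

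Outside the lists used here, the 5 tested genes whose deviations were most like the mean pattern of the 10, over 10 libraries, were Tmem25 (r = 0.96), the interferon-inducible GTPase genes Irgm2 (0.96) and Tgtp2 (0.95), the unnamed model Gm43162 (0.94) and Ccdc92 (0.93). None of the 5 was called by edgeR, and 2 of them, Tgtp2 and Gm43162, were lower at an unadjusted p below 0.05. Tmem25 (0.13 ± 0.09) and Ccdc92 (0.07 ± 0.29, at 0.399 CPM in HFpEF) had log2 fold changes above 0. The 5 were picked for the highest r among all tested genes outside the lists, so their r values are descriptions and not tests. Tgtp2 averaged 15.3 ± 3.64 CPM in HFpEF and 21.7 ± 2.17 CPM in Control (SD, n = 5 each), a log2 fold change of -0.50 ± 0.14 (SE; adjusted p = 0.0633).

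Leaving out a library changed what was called. Without HFpEF 2, 6 of the 10 genes were called lower (H2-K1, Tap1, Tap2, Psmb8, Psmb9 and Psmb10), where 1.86% of all genes were, and the median log2 fold change was -0.37. Without HFpEF 3, 0 were called by edgeR, where 1.08% of all genes were called lower, and the median was -0.18. Without both, 0 were called and the median was -0.30, where 0.781% of all genes were called lower. The sign was negative for the 10 genes in each of these fits. HFpEF 2 and HFpEF 3 were picked from the levels of these same 10 genes. HFpEF 2 was the highest of its group for all 10, so leaving it out lowers their HFpEF means by construction. The shares of all genes, for which these libraries were not picked, are therefore not a like background.

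**Figure D4:**
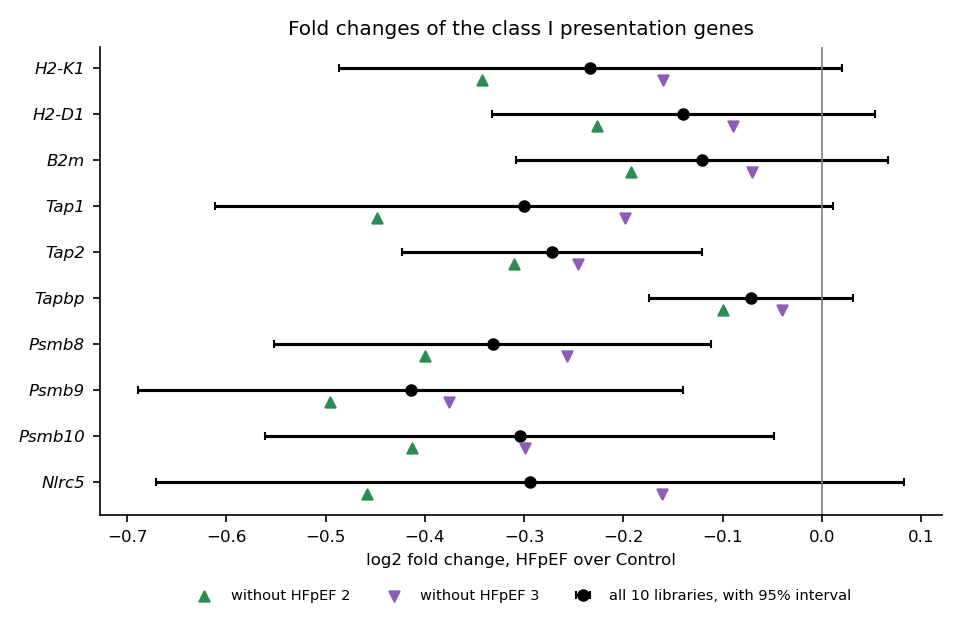
Log2 fold change of each gene, HFpEF over Control, with its 95% interval from all 10 libraries (black), and the fitted value without HFpEF 2 (green) and without HFpEF 3 (purple). The interval lies below 0 for Tap2, Psmb8, Psmb9 and Psmb10, and the purple points lie to the right of the black ones for the 10 genes.

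Around these genes, 15 other class I and class I-like heavy chain genes could be tested, and 0 were called by edgeR, DESeq2 or voom. At an unadjusted p below 0.05, 5 were lower and 0 higher, and the median log2 fold change was -0.29, against -0.01 over all genes tested. The smallest p was that of H2-T22, a class Ib gene, at 10.3 ± 1.84 CPM in HFpEF and 12.9 ± 0.997 CPM in Control (SD, n = 5 each; log2 fold change -0.32 ± 0.10 (SE), adjusted p = 0.0972). It was called in 1 of the 10 fits without a library, that without HFpEF 2 (adjusted p = 0.0275). These genes share sequence, and exons on the opposite strand overlap 29.4% of the exonic length of H2-T22.

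The general machinery of the endoplasmic reticulum and cytosol gave medians near 0. Of 9 genes of peptide trimming and loading, 1 rose, 0 fell and 8 were not called, with a median of 0.02 on the log2 scale. Canx, the chaperone calnexin, rose to 220 ± 10.4 CPM in HFpEF, against 192 ± 11.7 CPM in Control (SD, n = 5 each; log2 fold change 0.20 ± 0.05 (SE), adjusted p = 0.0420). The call held in 3 of the 10 fits without a library (adjusted p up to 0.110). Of 7 cytosolic peptidase genes, 1 rose, Ide, the insulin-degrading enzyme (0.17 ± 0.05, adjusted p = 0.0453), and 6 were not called. Ide was called in 1 of those 10 fits (adjusted p up to 0.117). Among 10 genes of proteasome activators and assembly, 0 were called by edgeR, DESeq2 or voom and 0 had an unadjusted p below 0.05. Their median was -0.00 and the smallest p was that of Psme4 (-0.08 ± 0.06, adjusted p = 0.5001).

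Of 17 genes of the transcriptional control of class I, 3 fell, 0 rose and 14 were not called, with a median of -0.09. The 3 were Irf9, Stat2 and Relb, an NF-kappaB subunit. Irf9, a subunit of the factor that binds the interferon element, stood at 10.6, 11.7, 11.3, 10.96 and 12.1 CPM in HFpEF 1 to 5, against 14.99, 14.7, 15.6, 13.8 and 17.3 CPM in Control 1 to 5 (log2 fold change -0.43 ± 0.07 (SE), adjusted p = 0.00168). Its groups did not overlap, and HFpEF 2 lay with the rest of its group. Relb stood at 3.099, 3.52, 3.05, 3.03 and 3.12 CPM in HFpEF 1 to 5, against 4.25, 3.85, 4.56, 4.04 and 4.80 CPM in Control 1 to 5 (-0.44 ± 0.09, adjusted p = 0.0122). Relb was also apart between the groups, with HFpEF 2 its highest HFpEF library. Stat2 averaged 17.5 ± 2.02 CPM in HFpEF and 23.5 ± 1.74 CPM in Control (SD, n = 5 each; -0.42 ± 0.08, adjusted p = 0.00502). The groups of Stat2 overlapped only through HFpEF 2 (20.8 CPM), which lay above Control 4 (20.7 CPM). The 3 genes stayed called in all 10 fits without a library. Irf1 (-0.32 ± 0.09), an interferon-induced activator chosen after its values were seen, was not called (adjusted p = 0.0642). Of 12 interferon receptor and kinase genes 0 were called by edgeR, DESeq2 or voom, and 1 was higher at an unadjusted p below 0.05, Ifngr1 (0.12 ± 0.05, adjusted p = 0.206).

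Class II presentation is the route for engulfed proteins, and 8 of its 10 tested genes had a log2 fold change above 0 and 2 below 0. Of the 10, 1 rose, 0 fell and 9 were not called by edgeR, while DESeq2 called 0 and voom 1 higher. The median log2 fold change was 0.30, and 4 were higher and 1 lower at an unadjusted p below 0.05. The share of all genes higher at that level was not counted, so the 4 cannot be set against it. H2-DMb2, a subunit of the peptide exchanger of class II, rose to 0.489 ± 0.0999 CPM in HFpEF, against 0.244 ± 0.0832 CPM in Control (SD, n = 5 each; log2 fold change 1.02 ± 0.28 (SE), adjusted p = 0.0471). Its counts are low, and the call held in 1 of the 10 fits without a library (adjusted p up to 0.106). Ciita, the class II counterpart of Nlrc5, averaged 4.13 ± 1.02 CPM in HFpEF and 3.42 ± 0.635 CPM in Control (0.27 ± 0.17, adjusted p = 0.395). A difference between class I and class II genes was not tested.

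**Figure D5:**
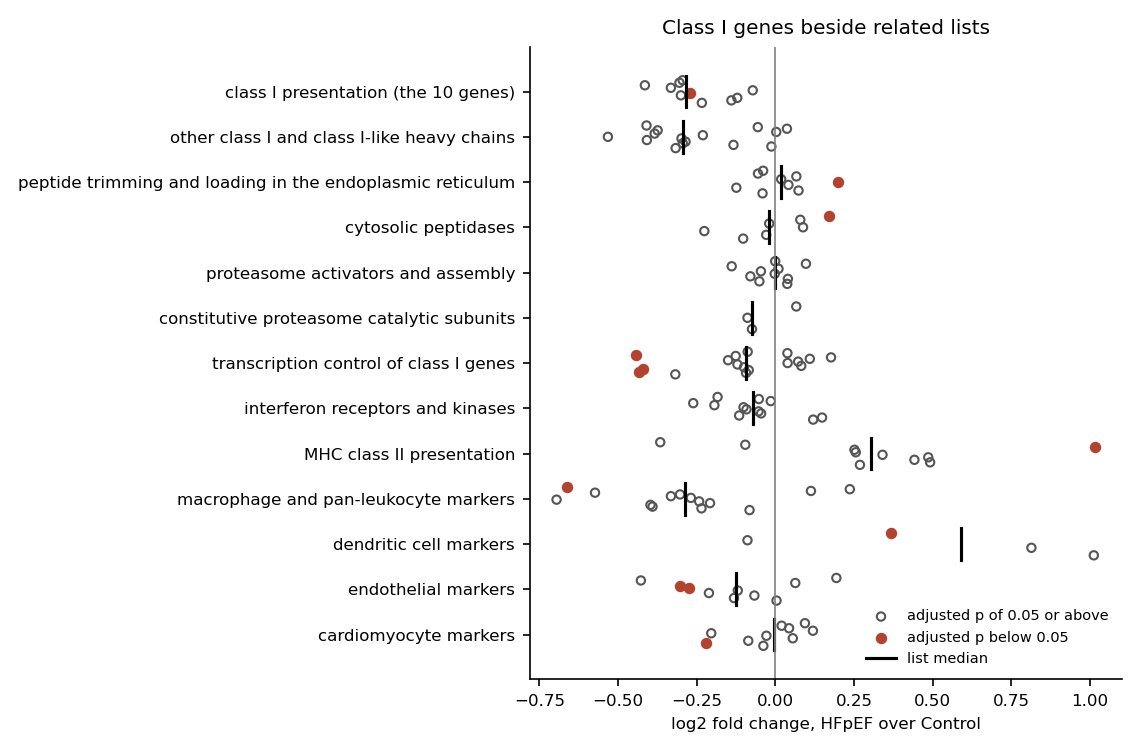
Log2 fold change, HFpEF over Control, of each tested gene in the 10 class I presentation genes and 12 related lists, 1 row a list, filled where the adjusted p is below 0.05, with a bar at each list's median. The class I rows have medians of -0.28 and -0.29 and the class II row of 0.30.

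Markers of cell types that carry class I are given beside these genes, and their part in the result was not tested. No summed list passed the test after adjustment. Summed macrophage and pan-leukocyte markers lay between 153 and 191 CPM in HFpEF and between 177 and 279 CPM in Control (exact permutation p = 0.0317, adjusted p = 0.0847 over 8 marker lists). Of those 14 genes edgeR called 1 lower and 0 higher, DESeq2 4 lower and voom 2 lower, and 8 were lower at an unadjusted p below 0.05. The gene that fell by edgeR's test was Itgam (-0.66 ± 0.16, adjusted p = 0.0264; called in 6 of 10 fits without a library, adjusted p up to 0.0712), and an annotated model on the same strand overlaps 68.7% of its exonic length. Summed endothelial markers lay between 810 and 897 CPM in HFpEF and between 877 and 1045 CPM in Control (exact permutation p = 0.0317, adjusted p = 0.0847). Of those 10 genes 2 fell, Egfl7 (-0.30 ± 0.07, adjusted p = 0.0225; called in 7 of 10, up to 0.0691) and Emcn (-0.27 ± 0.07, adjusted p = 0.0447; called in 2 of 10, up to 0.119). In the endothelial list 7 genes lay below 0 and 3 above, up to a log2 fold change of 0.19, with a median of -0.13. HFpEF 2 had the highest macrophage sum of its group, 191 CPM, and HFpEF 3, lowest for 7 of the class I genes, had the second highest, 167 CPM. For the endothelial sum, HFpEF 1 and HFpEF 2 were the highest of the group, at 897 and 880 CPM, and HFpEF 3 and HFpEF 4 the lowest, at 812 and 810 CPM.

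Summed neutrophil markers lay between 0.933 and 1.59 CPM in HFpEF and between 1.46 and 3.27 CPM in Control (exact permutation p = 0.0159, adjusted p = 0.0847), and Csf3r fell (-0.81 ± 0.22, adjusted p = 0.0479; called in 2 of 10, up to 0.112). Of 4 tested dendritic cell markers, 3 were higher at an unadjusted p below 0.05, again without a share of all genes beside it, and the median log2 fold change was 0.59. The 1 that rose by edgeR's test was Clec9a (0.37 ± 0.09, adjusted p = 0.0280; called in 6 of 10, up to 0.0752). The summed dendritic cell markers lay between 32.7 and 39.0 CPM in HFpEF and between 28.9 and 36.5 CPM in Control (exact permutation p = 0.381). Summed lymphocyte and NK markers lay between 3.15 and 5.45 CPM in HFpEF and between 3.93 and 4.38 CPM in Control (exact permutation p = 0.302). Of their 7 tested genes 0 were called by edgeR, DESeq2 or voom and 0 had an unadjusted p below 0.05, the smallest p being that of Prf1, perforin (0.34 ± 0.25, adjusted p = 0.489). Of 11 genes of class I recognition, 3 had enough counts to be tested, and 1 fell, the inhibitory class I receptor gene Pirb (-0.49 ± 0.12, adjusted p = 0.0299; called in 4 of 10, up to 0.0787).

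Cardiomyocyte markers summed to between 78263 and 84347 CPM in HFpEF and between 76233 and 81343 CPM in Control (exact permutation p = 0.0952), far above the other marker lists. Of 10 genes 1 fell, Tnnt2, cardiac troponin T (-0.22 ± 0.05, adjusted p = 0.0185; called in 7 of 10, up to 0.0639). In that list 5 genes lay below 0 and 5 above, with a median log2 fold change of -0.004. At an unadjusted p below 0.05, 1 was higher and 2 lower, and DESeq2 called 1 higher and 1 lower. Fibroblast markers (888 to 991 CPM in HFpEF, 803 to 951 CPM in Control; exact permutation p = 0.159) and mural cell markers (1167 to 1266 CPM in HFpEF, 1103 to 1253 CPM in Control; exact permutation p = 0.206) had 0 calls by edgeR among 8 genes each. At an unadjusted p below 0.05, 2 fibroblast and 1 mural genes were higher, and DESeq2 called 1 and 0. The smallest p values were those of Lum (0.38 ± 0.11, adjusted p = 0.0776) and Acta2 (0.47 ± 0.20, adjusted p = 0.232). No marker in these lists was at 0 in all 10 libraries.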

How the data were processed

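The table deposited by the authors holds expected counts per gene, with 1 column for each library. Per the submitters' processing notes, the tools were Bowtie2 2.1.0 and RSEM 1.2.15 and the build was mm10, with no role stated. The annotation release is not given in the sources used. Per the labels' protocols, RNA was depleted of ribosomal RNA before library construction with a Swift Biosciences kit. All values were whole numbers. The 92 ERCC rows, which sum to 0 counts, were not used. Totals ran from 31286355 to 46108710 counts, and no 2 libraries of a group were alike within sampling noise.

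Genes were kept by edgeR's filterByExpr (minimum count 10), leaving 18491, and tested with edgeR 4.0.16 (R 4.3.3), TMM scaling, robust quasi-likelihood fits on group alone, and p-values adjusted by Benjamini-Hochberg. Each SE was the fold change divided by the root of its F value, with 95% intervals. Ratios and marker sums used exact permutation tests over all splits, whose smallest p is 0.00794 for 5 against 5. Alternatives were RLE and upper quartile scaling, no filter and a minimum count of 50, DESeq2 1.42.0, limma voom 3.58.1, non-robust fits, a replicate block, mitochondrial genes left out, and each library left out. Principal transcript lengths for the ratios, and leaving out HFpEF 2 and HFpEF 3 together, were added after seeing the data. Identifiers were matched without version to GENCODE M21 (55144 of 55385). The members and the 17 other lists were chosen with earlier results of these data known. Named genes were the 10, and per list up to 4 called genes or the one with the smallest p, plus Psmb5, Psmb6, Psmb7, Ciita and the 5 closest in pattern.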

Additional observations from a re-analysis of the deposited data

Results flagged for a closer look

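Of 92 groups of 5 libraries checked, 5 held a library whose gap to its nearest neighbour was over 0.71 of the group's range, and chance marks about 1 group in 20. The highest HFpEF library for the ratio of Psmb10 to Psmb7, HFpEF 2, was separated by 0.884 of the range of its group. The lowest Control library for Psmb8, Control 1, was separated by 0.734. The highest HFpEF library for Relb, HFpEF 2, was separated by 0.816, and the lowest for Ifngr1, HFpEF 1, by 0.796. The highest Control library for the summed endothelial markers, Control 3, was separated by 0.731.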

How the results depend on the processing

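The fold changes of the 10 class I genes kept their negative sign in all 20 alternatives. Of 200 fits of 1 gene under 1 alternative, 188 left the call as it was, 7 ended that of Tap2 and 5 added a call, these 5 all without HFpEF 2. The number of the 10 called lower ran from 0 to 6 over the fits without 1 library and was 0 without HFpEF 2 and HFpEF 3 together, an alternative added after seeing the data. Over all genes, 599 were called higher and 386 lower as reported. The fits without 1 library called 352 to 684 higher and 202 to 417 lower. The fit without those 2 libraries called 237 higher and 149 lower, and DESeq2 called 926 higher. The cause of these differences was not tested. In the 17 other lists, the fits without 1 library called 0 to 4 genes higher and 3 to 10 lower. Without both libraries these were 1 and 3, upper quartile scaling called 2 higher, and DESeq2 called 14 lower. The differences of the log2 ratios ran from -0.31 to -0.18 for Psmb8 over Psmb5, from -0.45 to -0.33 for Psmb10 over Psmb7 and from 0.0513 to 0.0825 for B2m over both heavy chains without 1 library. Principal transcript lengths, also added after seeing the data, ended or added no call of a ratio. Over all genes tested, same-numbered libraries did not deviate together (correlations -0.11 to 0.06, and 1 of 5 HFpEF libraries correlated best with its own number). This gave no sign of pairing by number, but it cannot show that none exists. With the replicate block, the SE fell for most of the class I genes (H2-K1, 0.115 to 0.072). It rose only for Tapbp, Psmb8 and Psmb10 (Psmb10, 0.120 to 0.143). With the replicate block, 444 genes were called higher and 300 lower, and Tap2 stayed called (adjusted p = 0.0307). Psmb8 and Psmb9, at 74 to 208 counts a library, are those limited most by depth.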
